A study of Mus musculus with 12 samples.

Results

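The 9 ion transporter genes of the ileal epithelium described here were Slc13a1, Slc26a3, Slc26a6, Slc34a2, Slc20a1, Slc9a3, Slc9a2, Cftr and Slc12a2. The 9 genes were chosen by name, out of 46078 genes in the files, around Slc13a1, which was selected on its low level at 30 µg/kg TCDD in these same libraries. Values of Slc13a1 at 30 µg/kg are therefore given as a description with no test. RNA sequencing was done on epithelium scraped from the proximal ileum of male C57BL/6 mice. The mice received sesame oil vehicle or 3, 10 or 30 µg/kg TCDD by oral gavage every 4 days, 7 times in all, starting at 28 days of age, and tissue was taken at 56 days of age. TCDD (tetrachlorodibenzo-p-dioxin, the 2,3,7,8 isomer) is a persistent ligand of the aryl hydrocarbon receptor (AhR), a transcription factor. Each of the 4 groups held 3 libraries, numbered here 1 to 3 in the order of deposit, and every group, vehicle included, had the oil gavage in common. Scrapings hold every cell type of the epithelium, and they may hold some cells from beneath it.

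The small intestine absorbs sulfate, phosphate, sodium and chloride across the brush border of villus enterocytes and secretes chloride, bicarbonate and fluid mainly from the crypts. Absorption is driven by the sodium gradient that the basolateral sodium pump keeps up, either by co-transport of the anion with sodium or by paired exchange of sodium for protons and of chloride for bicarbonate. Secretion needs chloride entry at the basolateral side and its exit through an apical channel. Slc13a1 is the apical sodium-sulfate cotransporter, and Slc34a2 and Slc20a1 carry phosphate with sodium. Slc9a3 and Slc9a2 are apical sodium/proton exchangers, and Slc26a3 and Slc26a6 are apical chloride/bicarbonate exchangers. Cftr is the apical chloride and bicarbonate channel opened by cAMP-dependent phosphorylation, and Slc12a2 is the basolateral cotransporter of sodium, potassium and chloride that supplies it.

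The AhR binds DNA at elements with the core letters GCGTG, and the clock factors BMAL1 and CLOCK bind E-boxes with the letters CACGTG. RefSeq promoter windows of build GRCm38.p6, running from 250 bases before to 50 after a gene's start, were matched by symbol to 6 of the 9 genes. Those of Cftr and Slc9a3 are shown up to the start site as examples, for the Cftr result and the clock-related spread of Slc9a3 described below. Slc34a2 separated by clock score without overlap as well. Capitals mark GCGTG in Cftr and CACGTG in Slc9a3, searched on both strands.
Cftr, chr6:18170437-18170686, plus strand: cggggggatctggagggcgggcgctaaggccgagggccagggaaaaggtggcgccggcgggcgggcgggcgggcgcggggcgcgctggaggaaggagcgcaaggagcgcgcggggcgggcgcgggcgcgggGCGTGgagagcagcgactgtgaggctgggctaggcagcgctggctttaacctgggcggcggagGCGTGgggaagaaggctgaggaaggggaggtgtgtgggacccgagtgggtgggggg
Slc9a3, chr13:74121163-74121412, plus strand: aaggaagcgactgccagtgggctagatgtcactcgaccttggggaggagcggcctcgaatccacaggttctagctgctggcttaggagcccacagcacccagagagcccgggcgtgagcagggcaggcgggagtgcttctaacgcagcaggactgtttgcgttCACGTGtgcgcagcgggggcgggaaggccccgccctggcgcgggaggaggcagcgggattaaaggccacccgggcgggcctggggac
The Cftr window held GCGTG at 2 places, starting 119 and 56 bases before the start site. At least 1 GCGTG or its reverse CACGC was present in 32.4% of all 32851 windows of 300 bases. The Slc9a3 window held CACGTG at 1 place, 87 bases before the start site, against 7.15% of all windows, and 1 AhR core that did not overlap it. Slc34a2 had 1 AhR core and no CACGTG, while Slc26a3 and Slc26a6 had neither motif. Both windows of Slc20a1 held an AhR core, and 1 of them held CACGTG at 2 places as well. These matches describe letters and not binding.

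Gene counts summed to 11695887 to 22180274 per library. CPM is the count scaled to library size by edgeR in the usual unit, and a floor of 3 counts equals 0.135 to 0.257 CPM, which covers counting error only. Every one of the 9 genes had counts in every library, and all 9 passed the filter on low counts. Enterocyte markers fitted the labelled epithelium, with all 10 genes detected. Their summed level in vehicle was 38866 to 45673 CPM, against 50.2 to 179 CPM for 6 smooth muscle genes. Some markers of gut position and of pancreas differed between groups. Fabp6 of the distal ileum averaged 0.0672 CPM in vehicle and 31.2, 0.198 and 0.0957 CPM at 3, 10 and 30 µg/kg. Of 4 distal ileum genes 1 was called at 3 µg/kg (0.228% of all genes) and none at 10 or 30 µg/kg. The 5 pancreatic genes summed to 5.25 to 6.43 CPM in vehicle. With rising dose they summed to 0 to 0.117, 1.58 to 1.71 and 0.274 to 1.16 CPM. The part of this in any result was not tested. The 4 AhR target genes Cyp1a1, Cyp1b1, Ahrr and Tiparp summed to 63.2 to 72.7 CPM in vehicle, 71.0 to 208 CPM at 3 µg/kg, 1006 to 1469 CPM at 10 µg/kg and 2859 to 3497 CPM at 30 µg/kg. Reads outside genes made up 28.0 to 30.1% of a library in vehicle and at 3 and 10 µg/kg, and 25.0 to 25.4% at 30 µg/kg. Reads aligned to several places made up 31.4 to 34.6% in vehicle and at 3 and 10 µg/kg, and 36.2 to 38.8% at 30 µg/kg. The part of these differences in any result at 30 µg/kg was not tested beyond a fit with trends of gene length and GC content removed. The study describes each group as 3 mice, but the labels do not tie a library to an animal, so p-values measure the spread between these libraries.

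A clock score was computed for each library as the mean standardised level of 9 genes with a phase like Dbp minus that of 4 genes with the opposite phase, the latter including Arntl, which encodes BMAL1. The score was above 0 in 6 libraries, from 1.20 to 2.14 standard deviation units, and below 0 in 6, from −2.28 to −0.749. Libraries above 0 were vehicle replicates 2 and 3, replicate 1 at 3 µg/kg, replicate 1 at 10 µg/kg, and replicates 1 and 2 at 30 µg/kg. Each group therefore held libraries on both sides, and the share was unequal between groups. The scores at 30 µg/kg were 1.75, 1.20 and −0.749, a narrower span than in the other groups. A gene was called where edgeR's quasi-likelihood test gave a Benjamini-Hochberg adjusted p under 0.05 over 15823 genes and the change was at least 1.5-fold.

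**Figure D1:**
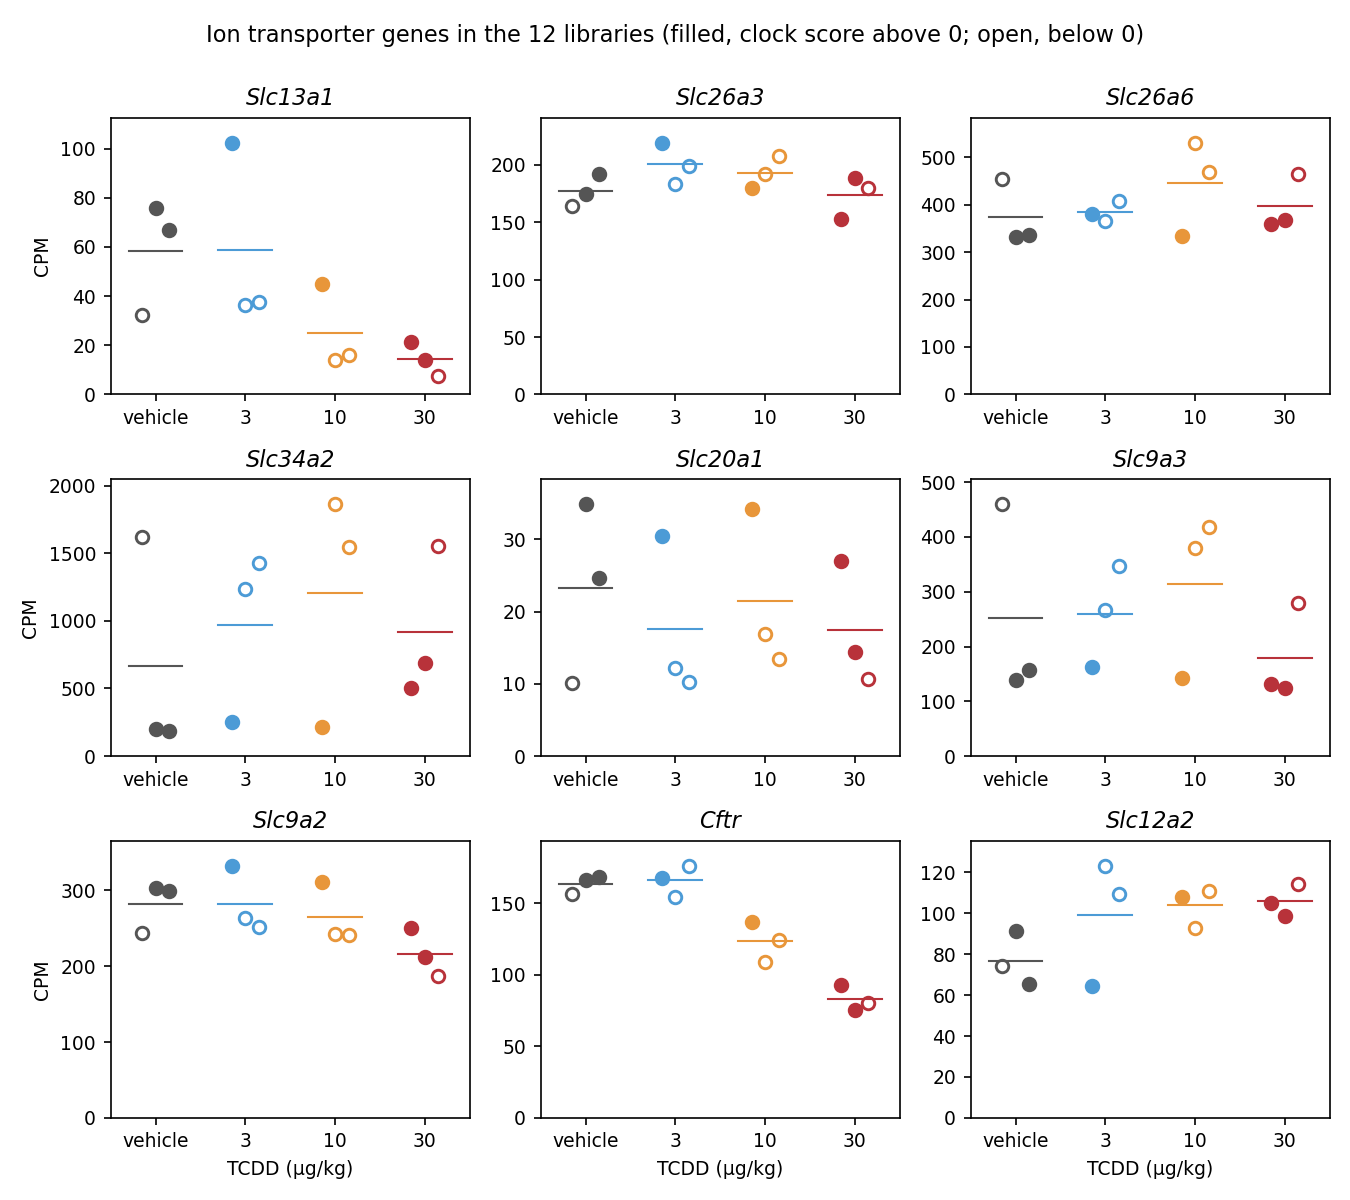
CPM (vertical axes, from 0) of the 9 genes in each library by TCDD dose, with a line at each group mean; filled points are libraries with a clock score above 0 and open points those below 0. Cftr at 30 µg/kg lay between 75.5 and 92.7 CPM, below every other library, whereas Slc34a2, Slc9a3 and Slc20a1 separated mainly by clock score within a dose.

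Levels were compared between genes per kb of exon. In vehicle the order of the means was Slc34a2 at 133 ± 165 CPM per kb (SD, n = 3), Slc26a6 at 69.1 ± 12.9, Slc9a3 at 45.8 ± 32.7, Slc9a2 at 40.4 ± 4.81, Slc26a3 at 27.8 ± 2.22, Cftr at 21.1 ± 0.800, Slc13a1 at 7.56 ± 2.97, Slc12a2 at 7.04 ± 1.20 and Slc20a1 at 4.16 ± 2.23. The libraries of Slc34a2, Slc26a6, Slc9a3 and Slc9a2 overlapped each with the next in this order. Slc26a3 lay below Slc9a2 in every vehicle library and above Cftr, and Cftr lay above the last 3 genes. Those last 3 overlapped each with the next. At 30 µg/kg Slc13a1 was at the bottom, at 1.86 ± 0.893 CPM per kb (SD, n = 3), below Slc20a1 at 3.12 ± 1.54 CPM per kb, although the libraries of those genes overlapped. The Cftr mean was then 10.7 ± 1.14 CPM per kb and overlapped that of Slc12a2, 9.72 ± 0.726 CPM per kb.

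**Figure D2:**
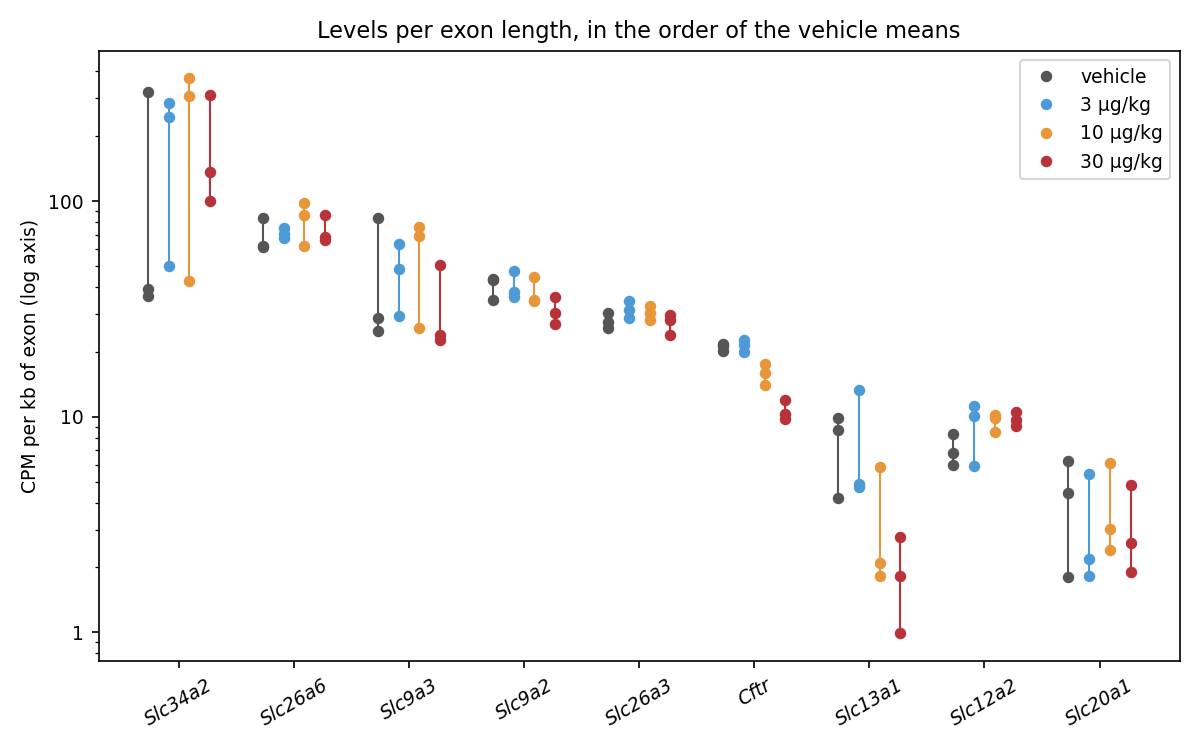
CPM per kb of exon (log axis) of each gene in every library, ordered by the vehicle mean, with a line from the lowest to the highest library of a dose. Slc34a2 had the highest vehicle mean and the widest range, and Slc13a1 moved from 7.56 CPM per kb in vehicle to 1.86 CPM per kb at 30 µg/kg.

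The spread between replicate libraries differed widely among the genes. As a standard deviation of log2 CPM pooled within groups, it was 0.12 for Cftr and 0.13 for Slc26a3, against a median of 0.24 over all genes tested. It was 0.20 for Slc9a2, 0.24 for Slc26a6 and 0.29 for Slc12a2. The widest values were 0.77 for Slc9a3, 0.79 for Slc20a1, 0.79 for Slc13a1 and 1.49 for Slc34a2. The last 4 genes were at or above percentile 96.3 of the genes tested.

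Cftr was lower in the mice given the high dose. In vehicle it measured 157, 166 and 169 CPM, and at 3 µg/kg 167, 155 and 176 CPM. At 10 µg/kg it measured 137, 109 and 124 CPM, and at 30 µg/kg 92.7, 75.5 and 80.4 CPM. The libraries at 10 µg/kg lay below all 6 of vehicle and 3 µg/kg, and those at 30 µg/kg lay below all others. Cftr (ENSMUSG00000041301, chromosome 6, 18170687 to 18322768 of GRCm38, plus strand) fell 1.97-fold at 30 µg/kg, a log2 change of −0.98 (adjusted p = 0.000161 by edgeR, 95% interval −1.21 to −0.75, SE 0.11). The trend over the 4 dose ranks gave a log2 change of −1.02 from vehicle to 30 µg/kg (adjusted p = 0.00164 by edgeR, SE 0.15). At 10 µg/kg the log2 change was −0.41 (adjusted p = 0.104 by edgeR, SE 0.10), which did not pass. Between 30 and 10 µg/kg the log2 change was −0.57 (adjusted p = 0.00961 by edgeR, SE 0.10), a 1.49-fold difference that stayed just under the 1.5-fold limit. At 3 µg/kg the log2 change was 0.02, with a 95% interval of −0.21 to 0.25.

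The fall of Cftr at 30 µg/kg was called under all 21 other settings run, with log2 changes between −1.07 and −0.88. The smallest change came from the fit with length and GC trends removed. Within libraries with a clock score above 0, Cftr was 166 and 169 CPM in vehicle and 92.7 and 75.5 CPM at 30 µg/kg. Below 0, it was 157 CPM in the vehicle library and 80.4 CPM in the library at 30 µg/kg. After the clock score entered as a covariate the log2 change stayed at −0.98 (adjusted p = 1.24e-05 by edgeR, SE 0.09). An antisense gene, Gm15592, shares 129 bases of exon with Cftr, and its counts over all libraries were 40 beside 26998 for Cftr.

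Markers of several cell types were higher at the same dose. The 8 Paneth cell genes summed to 741 to 1127 CPM in vehicle and 2305 to 3237 CPM at 30 µg/kg, and 7 of the 8 were called higher, against 3.08% of all genes. The 7 goblet cell genes summed to 12757 to 16691 CPM in vehicle and 16415 to 17848 CPM at 30 µg/kg, with 4 called higher. The 6 enteroendocrine genes summed to 127 to 137 CPM and 206 to 235 CPM, with 5 called higher. The sum of the 10 enterocyte genes, 37308 to 48121 CPM, overlapped that of vehicle. The sums of the 8 proliferation genes, 239 to 284 CPM in vehicle and 305 to 426 CPM at 30 µg/kg, did not overlap. None of the 8 was called, against 3.97% of all genes. At 10 µg/kg their sum was 337 to 447 CPM, so the higher level was not particular to 30 µg/kg. Of 4 crypt stem cell genes, Olfm4 averaged 78.3 CPM in vehicle and 142 CPM at 30 µg/kg, and Lgr5 4.02 and 2.72 CPM. The part of these shifts in the level of Cftr was not tested, and in bulk scrapings fewer Cftr-expressing cells and less Cftr RNA per cell cannot be told apart.

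**Figure D3:**
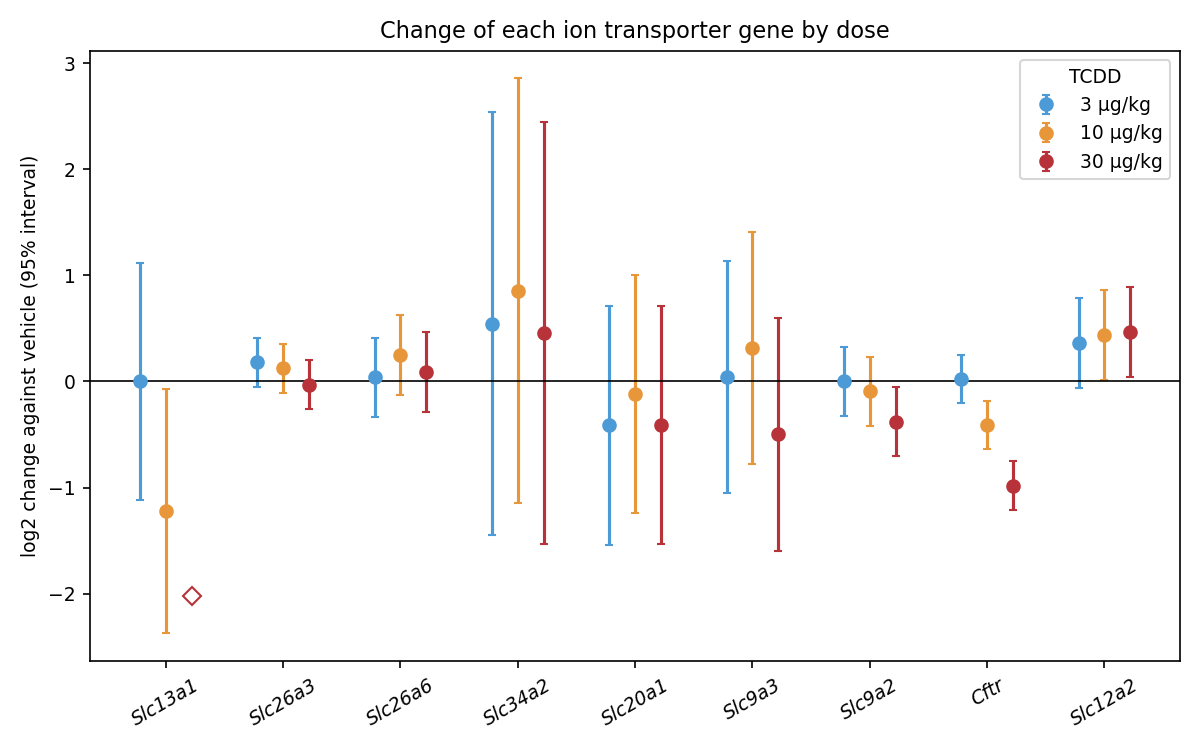
Log2 change of each gene against vehicle (vertical axis) at 3, 10 and 30 µg/kg TCDD, with 95% intervals from the edgeR fit; the open diamond is Slc13a1 at 30 µg/kg, which chose the genes and has no interval. The intervals of Cftr at 30 µg/kg, −1.21 to −0.75, and of Slc34a2, −1.53 to 2.45, show the contrast in precision.

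Slc12a2, which brings chloride into the cell on the side opposite to Cftr, did not share the decline of the channel. Its levels were 74.3, 91.1 and 65.3 CPM in vehicle, 64.4, 123 and 109.7 CPM at 3 µg/kg, 108, 93.0 and 111 CPM at 10 µg/kg, and 105, 98.7 and 114 CPM at 30 µg/kg. Libraries of the higher doses lay above all vehicle libraries, and those at 3 µg/kg spanned them. The log2 change was 0.44 at 10 µg/kg (adjusted p = 0.304 by edgeR, SE 0.20) and 0.46 at 30 µg/kg (adjusted p = 0.191 by edgeR, 95% interval 0.04 to 0.89, SE 0.20), so neither passed. The ratio of Cftr to Slc12a2, each in CPM per kb, was 2.97, 2.56 and 3.63 in vehicle, 3.66, 1.77 and 2.26 at 3 µg/kg, and 1.78, 1.65 and 1.58 at 10 µg/kg. It was 1.24, 1.08 and 0.987 in the libraries of the high dose. All 3 ratios at 30 µg/kg lay below the other 9. Its change was not tested apart from the change of Cftr.

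Slc13a1 (ENSMUSG00000029700, chromosome 6, 24088283 to 24168092 of GRCm38, minus strand), the sulfate transporter around which the genes were chosen, spread widely within each group. It measured 32.4, 76.0 and 66.9 CPM in vehicle, 102, 36.4 and 37.5 CPM at 3 µg/kg, 45.1, 14.1 and 16.2 CPM at 10 µg/kg, and 21.4, 14.0 and 7.67 CPM at 30 µg/kg. The highest library at 30 µg/kg lay below the lowest in vehicle, the pattern for which the gene was chosen. The lowest value at each dose came from a library with a clock score below 0, and the highest from a library with a score above 0. Among libraries above 0, Slc13a1 was 76.0 and 66.9 CPM in vehicle, 102 CPM at 3 µg/kg, 45.1 CPM at 10 µg/kg, and 21.4 and 14.0 CPM at 30 µg/kg. Among libraries below 0 it was 32.4 CPM in vehicle, 36.4 and 37.5 CPM at 3 µg/kg, 14.1 and 16.2 CPM at 10 µg/kg, and 7.67 CPM at 30 µg/kg. On both sides the order was the same, with 10 µg/kg below vehicle and 30 µg/kg below 10 µg/kg. That 30 µg/kg lay below vehicle on each side followed from the pattern for which the gene was chosen, so it is no added evidence. The order of 30 below 10 µg/kg used the same 30 µg/kg libraries that chose the gene, and it is likewise only a description. Below 0 the vehicle and 30 µg/kg values came from a single library each. Above 0 the 3 and 10 µg/kg values did so too.

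As a description, the log2 change of Slc13a1 at 30 µg/kg was −2.02 (SE 0.55), or 4.05-fold lower, and it ranged from −2.45 to −1.71 over the other settings. The change at 10 µg/kg, which the choice of the gene did not use although the vehicle libraries were shared, was −1.22 (adjusted p = 0.289 by edgeR, 95% interval −2.37 to −0.07, SE 0.53). It was not called, and its libraries overlapped those of vehicle. Leaving out a library gave −1.94 to −0.93, the former without replicate 1 at 10 µg/kg, and none of these was called. In the fit that included the clock score, the change at 10 µg/kg was −0.75 (SE 0.14) and was called, with an edgeR adjusted p of 0.0208. At 3 µg/kg the log2 change was 0.00, with a 95% interval of −1.11 to 1.12, and it turned negative in 11 of 21 settings.

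The phosphate transporters differed more by clock score than by dose. Slc34a2 measured 1619, 197 and 183 CPM in vehicle, 250.1, 1236 and 1429 CPM at 3 µg/kg, 213, 1861 and 1544 CPM at 10 µg/kg, and 501, 688 and 1554 CPM at 30 µg/kg. The 6 libraries with a clock score below 0 held 1236 to 1861 CPM and the 6 above 0 held 183 to 688 CPM, without overlap. Slc20a1, a transporter of phosphate with broad expression, ran the other way, with 10.1, 34.9 and 24.7 CPM in vehicle, 30.4, 12.3 and 10.2 CPM at 3 µg/kg, 34.2, 16.9 and 13.4 CPM at 10 µg/kg, and 27.1, 14.5 and 10.7 CPM at 30 µg/kg. Below 0 it lay between 10.1 and 16.9 CPM, and above 0 between 14.5 and 34.9 CPM. The overlap came from replicate 2 at 30 µg/kg, whose clock score was the closest to 0 among the positive ones.

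Neither phosphate transporter passed at any dose in the fit without the clock. At 30 µg/kg the log2 change was 0.46 for Slc34a2 (adjusted p = 0.823 by edgeR, SE 0.92) and −0.41 for Slc20a1 (adjusted p = 0.698 by edgeR, SE 0.52). The change of Slc34a2 rested on single libraries, since it was 2.27 without vehicle replicate 1 and −0.16 without replicate 3 at 30 µg/kg. Among libraries above 0, however, Slc34a2 was 197 and 183 CPM in vehicle, 250.1 CPM at 3 µg/kg and 213 CPM at 10 µg/kg, but 501 and 688 CPM at 30 µg/kg. Both libraries at 30 µg/kg thus lay above the other 4. Among libraries below 0 the value at 30 µg/kg, 1554 CPM, was inside the range of the others, 1236 to 1861 CPM. After adding the clock score the log2 change of Slc34a2 at 30 µg/kg was 1.09 (SE 0.12) and was called, with an edgeR adjusted p of 7.96e-05. The same fit gave 1.07 between 30 and 10 µg/kg (adjusted p = 0.000263 by edgeR, SE 0.13), where the fit without the clock had given −0.40 (SE 0.92). The scores of replicates 2 and 3 at 30 µg/kg, 1.20 and −0.749, were nearer to 0 than any other on their side. That of replicate 1, with Slc34a2 at 501 CPM, was 1.75, within the 1.66 to 2.14 of the positive scores in the other groups. Whether dose acted on the clock genes, on Slc34a2, or on both cannot be told apart here.

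For Slc20a1 the fit with the clock score gave a log2 change of −0.83 between 30 and 10 µg/kg (adjusted p = 0.0146 by edgeR, SE 0.19), which was called, and −0.33 at 30 µg/kg against vehicle (adjusted p = 0.236 by edgeR, SE 0.17), which was not. Slc20a1 shares 280 bases of exon with the opposite-strand gene Gm4430 and 452 with 9830144P21Rik. Their counts over all libraries were 74 and 6, beside 4004 for Slc20a1.

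**Figure D4:**
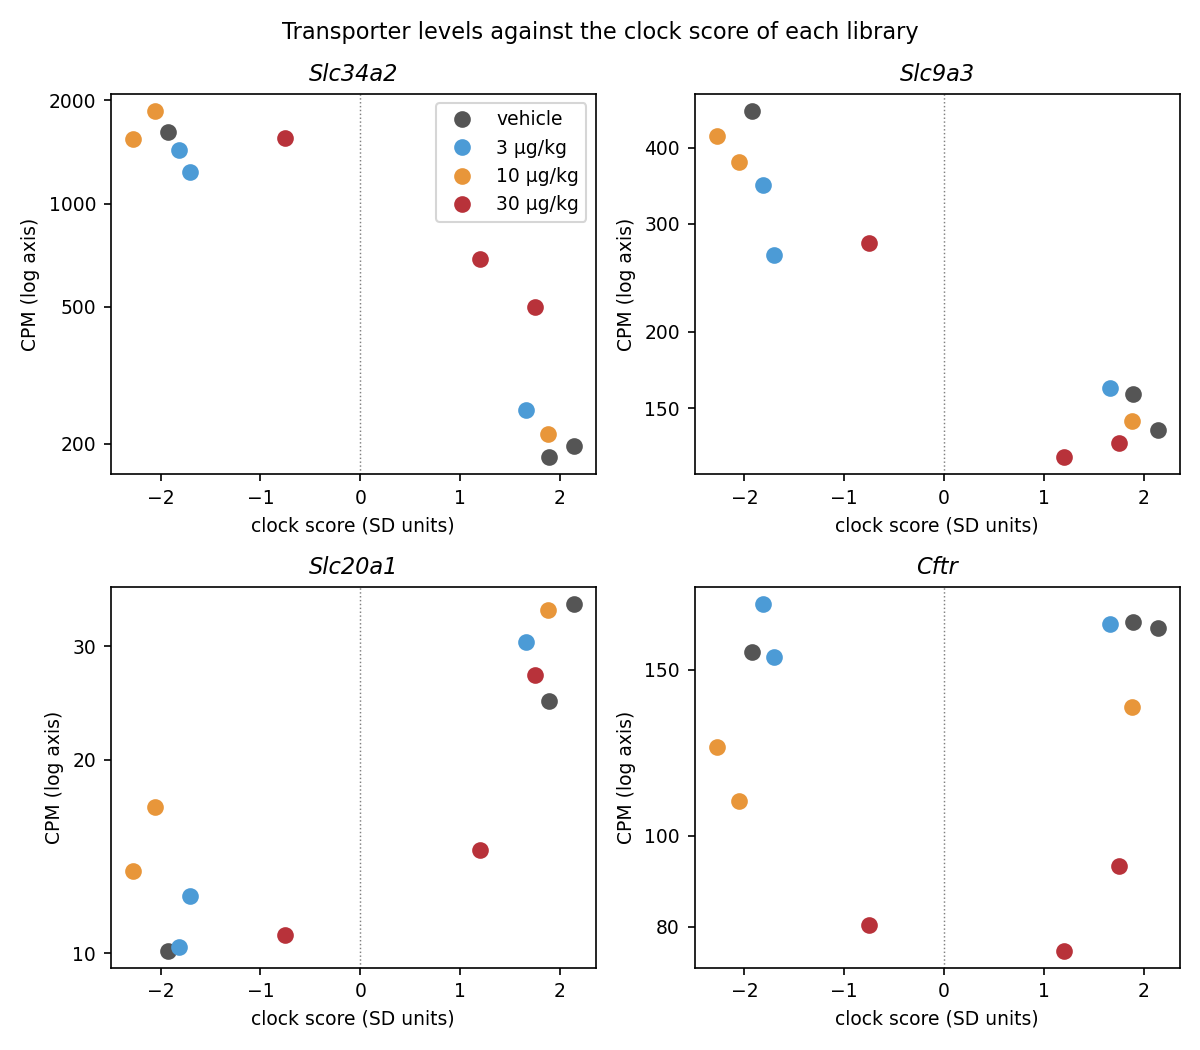
CPM (log axes) of Slc34a2, Slc9a3, Slc20a1 and Cftr against the clock score of each library in standard deviation units, coloured by dose. The Slc34a2 and Slc9a3 libraries below 0 lay above those over 0 without overlap, and Cftr separated by dose on both sides.

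The sodium/proton exchangers behaved unlike each other. Slc9a3 measured 459, 138 and 158 CPM in vehicle, 162, 267 and 347 CPM at 3 µg/kg, 143, 379 and 418 CPM at 10 µg/kg, and 131, 125 and 279 CPM at 30 µg/kg. It lay between 267 and 459 CPM in the 6 libraries with a clock score below 0 and between 125 and 162 CPM in the 6 above 0, without overlap. Its log2 change at 30 µg/kg was −0.50 (adjusted p = 0.619 by edgeR, SE 0.51) and, with the clock score, −0.35 (adjusted p = 0.0927 by edgeR, SE 0.13), so no fall was shown. Slc9a2 measured 243, 303 and 299.6 CPM in vehicle, 332, 264 and 252 CPM at 3 µg/kg, 311, 242 and 241 CPM at 10 µg/kg, and 250.3, 212 and 188 CPM at 30 µg/kg. The groups overlapped in 1 pair only, replicate 1 of vehicle at 243 CPM and replicate 1 at 30 µg/kg at 250.3 CPM. Its log2 change at 30 µg/kg was −0.38 (adjusted p = 0.161 by edgeR, 95% interval −0.71 to −0.06, SE 0.15). With the clock score the change was again −0.38 (SE 0.07) with an edgeR adjusted p of 0.00398, a 1.30-fold difference below the limit for a call.

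The chloride/bicarbonate exchangers were the steadiest by dose. Slc26a3, the exchanger lost in congenital chloride diarrhoea, measured 164, 175 and 192 CPM in vehicle, 219, 184 and 199 CPM at 3 µg/kg, 180.0, 192 and 207 CPM at 10 µg/kg, and 153, 189 and 179.6 CPM at 30 µg/kg. Its libraries overlapped between every dose and vehicle, and the 95% interval of the log2 change at 30 µg/kg was −0.26 to 0.20. Slc26a6, which also carries oxalate, measured 454, 332 and 336 CPM in vehicle, 379.8, 365 and 408 CPM at 3 µg/kg, 335, 531 and 468 CPM at 10 µg/kg, and 358, 369 and 465 CPM at 30 µg/kg. The high libraries of Slc26a6 in vehicle and at 10 and 30 µg/kg were all among those with a clock score below 0. Its 95% interval at 30 µg/kg was −0.29 to 0.46. These intervals leave room for changes of up to 1.38-fold in Slc26a6 and 1.20-fold in Slc26a3.

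Counted over the list, none of the 9 genes was called at 3 µg/kg by edgeR, DESeq2 or limma-voom, and none had an unadjusted p under 0.05, against 0.228% of all genes called and 11.4% with such a p. At 10 µg/kg none of the 9 was called by the 3 tools, against 0.613% of all genes, and 3 had an unadjusted p under 0.05 in edgeR (Slc13a1, Cftr and Slc12a2), against 15.9%. For 30 µg/kg, 1 of the 8 genes other than Slc13a1, Cftr, was called, against 3.97% of all genes in either direction and 0.891% lower. Of those 8, 3 had an unadjusted p under 0.05 in edgeR (Cftr, Slc9a2 and Slc12a2), against 21.6%. In the trend over dose rank 1 of 8 was called, again Cftr, against 3.29% of all genes. Between 30 and 10 µg/kg none of the 8 was called by the 3 tools, against 2.77% of all genes, and 1, Cftr, had an unadjusted p under 0.05, against 21%. The libraries of Cftr and Slc12a2 did not overlap those of vehicle at 10 µg/kg, 2 of 9 genes against 22.9% of all genes, nor at 30 µg/kg, 2 of 8 against 26.8%. The share of genes without overlap was thus near the background. At 30 µg/kg the median over the 8 genes was −0.21 on the log2 scale, against −0.02 over all genes tested. All comparisons with vehicle share the same 3 vehicle libraries.

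Likeness was measured as Pearson's r of log2 CPM over the 12 libraries, among 11195 genes with a mean count of at least 50, as a description. These libraries share dose groups and the division by clock score, and r does not separate them. The 5 genes most like Slc13a1 were Sgk3 (r = 0.984), which encodes a kinase of the SGK family, Fem1c (r = 0.970), Arfgef2 (r = 0.967), Dennd6a (r = 0.961) and Specc1 (r = 0.951). Sgk3 ranged from 14.6 to 28.0 CPM in vehicle, 14.7 to 27.6 CPM at 3 µg/kg, 9.19 to 19.4 CPM at 10 µg/kg and 6.90 to 10.6 CPM at 30 µg/kg, a log2 change of −1.34 at the high dose. Those of Fem1c, Arfgef2, Dennd6a and Specc1 were smaller, at −0.33, −0.36, −0.24 and −0.43. These genes were picked for likeness to Slc13a1 over libraries that include the high dose. Their changes there are not independent of that choice and are a description with no test. Among the 9 genes, r with Slc13a1 was 0.935 for Slc9a2 and 0.846 for Cftr. Slc34a2 and Slc20a1 had an r of −0.898, and Slc34a2 and Slc9a3 one of 0.839. The gene most like each of the others was Ppp1r14d for Slc34a2 (r = 0.988), Ceacam20 for Slc9a3 (r = 0.974), Fnip1 for Slc9a2 (r = 0.974), Ruvbl2 for Slc12a2 (r = 0.957), Daam1 for Slc20a1 (r = 0.955), Mbnl1 for Cftr (r = 0.954), Itgb1bp1 for Slc26a3 (r = 0.939) and Myo5b for Slc26a6 (r = 0.918).

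Other genes of the same transport steps were grouped in 6 lists with 111 genes in all, of which 84 were tested. Of the 84, edgeR called 2 at 30 µg/kg, 1 in each direction, and DESeq2 and limma-voom 3 each, against 3.97% of all genes in edgeR. The median log2 change of the 84 was −0.06. At 3 µg/kg none was called by edgeR or limma-voom and 2 by DESeq2, and 11 had an unadjusted p under 0.05 in edgeR, against 11.4% of all genes. At 10 µg/kg edgeR called 2, both higher, against 0.613% of all genes, while DESeq2 called 4, of which 1 was lower. Between 30 and 10 µg/kg edgeR called 4, against 2.77%, and in the trend 3, against 3.29%. The shares of the 84 genes at 30 µg/kg and in the trend were thus near the background.

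In the sulfate list, which covers other sulfate carriers and the enzymes that make and recycle activated sulfate, 9 genes were tested. None was called at any dose by edgeR or limma-voom, against 0.228%, 0.613% and 3.97% of all genes in edgeR with rising dose. DESeq2 called 1 at 3 µg/kg. Unadjusted p-values under 0.05 in edgeR numbered 2, 0 and 2 with rising dose, against 11.4%, 15.9% and 21.6% of all genes. Slc26a2, the sulfate/chloride exchanger, was 689 ± 39.4 CPM in vehicle and 722 ± 47.6 CPM at 30 µg/kg (SD, n = 3), a log2 change of 0.07 (SE 0.15). Papss2, which makes the activated sulfate donor, was 318 ± 85.9 and 262 ± 43.1 CPM, and Bpnt1, a phosphatase that clears the by-product of sulfation, 425 ± 59.1 and 449.7 ± 18.3 CPM (SD, n = 3). None of these 3 differed beyond the spread between libraries.

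In the phosphate list 1 of 7 tested genes was called, in the trend only (3.29% of all genes). This was Vdr, the vitamin D receptor. It measured 394 ± 12.1 CPM in vehicle, 394 ± 57.9 CPM at 3 µg/kg, 480.1 ± 10.5 CPM at 10 µg/kg and 588 ± 54.0 CPM at 30 µg/kg (SD, n = 3). The trend gave a log2 change of 0.60 (adjusted p = 0.00800 by edgeR, SE 0.11). At 30 µg/kg alone the log2 change of Vdr was 0.58 (adjusted p = 0.00800 by edgeR, SE 0.11), just under 1.5-fold. The phosphate exporter Xpr1 went from 192 ± 5.78 CPM to 149 ± 7.30 CPM (SD, n = 3; log2 change −0.37, edgeR adjusted p = 0.0741), and the mitochondrial phosphate carrier Slc25a3 from 609.5 ± 39.2 CPM to 577 ± 17.9 CPM (SD, n = 3).

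In the chloride and bicarbonate list 1 of 16 tested genes was called at 30 µg/kg (3.97% of all genes) and in the trend (3.29%), Slc4a5, a sodium bicarbonate cotransporter. It fell from 34.3 ± 5.63 CPM in vehicle to 22.8 ± 2.42 CPM (SD, n = 3; log2 change −0.59, adjusted p = 0.0344 by edgeR, SE 0.15). The trend call was lost with limma-voom, where the change was −0.58 and below the 1.5-fold limit. Clca4b, Clca4a and Clca1, the most abundant genes of the list per kb and members of a secreted and membrane-bound family first described as chloride channel regulators, had log2 changes of −0.14, 0.31 and 0.03 at 30 µg/kg, each with an edgeR adjusted p of at least 0.566. None of the 9 tested genes of the sodium and proton list was called in any comparison by edgeR, DESeq2 or limma-voom. Of all genes edgeR called 0.228% to 3.97%, depending on the comparison. At most 2 of the 9 had an unadjusted p under 0.05 in a comparison, as at 3 µg/kg in edgeR, against 11.4% of all genes. At 30 µg/kg there were none in edgeR and limma-voom and 1 in DESeq2, against 21.6% of all genes in edgeR. Slc9a8, among the most abundant of this list per kb, differed from vehicle by −0.08 on the log2 scale (SE 0.09) at 30 µg/kg.

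Atp1b1, a subunit of the sodium pump, spread widely between libraries, from 1327 to 2514 CPM in vehicle. The high dose differed from vehicle by −0.09 on the log2 scale (SE 0.32). Kcnk5, a potassium channel, had a log2 change of −0.22 (SE 0.28). Fxyd3, a small regulator of the pump, rose from 4.49 ± 0.711 CPM to 8.92 ± 1.21 CPM at 30 µg/kg (SD, n = 3; log2 change 0.99, adjusted p = 0.00807 by edgeR, SE 0.19) and also against 10 µg/kg (log2 change 1.14, adjusted p = 0.00577 by edgeR, SE 0.19). Atp12a, the non-gastric proton/potassium pump known from the colon, was at 0 in 9 libraries and between 1.52 and 2.23 CPM in the 3 libraries at 10 µg/kg. Its mean there was at least 10.5-fold higher than in vehicle, taken at the floor of 3 counts per library, and it was called against vehicle by all 3 tools. Against 30 µg/kg it was called by edgeR and limma-voom, while DESeq2 gave no adjusted p.

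Among the 28 scaffold and regulator genes, none was called at 3 or 30 µg/kg by edgeR, with 2 and 7 at an unadjusted p under 0.05 (11.4% and 21.6% of all genes), while DESeq2 called 1 at each of these doses and limma-voom 1 at 30 µg/kg. Car2, a cytosolic carbonic anhydrase that supplies bicarbonate and protons, rose from 30.1 ± 1.44 CPM in vehicle to 68.6 ± 14.7 CPM at 10 µg/kg (SD, n = 3; log2 change 1.19, adjusted p = 0.00455 by edgeR, SE 0.17). The 30 µg/kg libraries gave 38.3 ± 7.65 CPM (SD, n = 3), lower than at 10 µg/kg (log2 change −0.84, adjusted p = 0.0134 by edgeR, SE 0.16). The 5 colon genes summed to 79.0 to 103 CPM at 10 µg/kg against 48.3 to 58.9 CPM in vehicle. Their sums were 31.4 to 53.2 CPM at 3 µg/kg and 37.0 to 48.0 CPM at 30 µg/kg. The colon sum, like Atp12a, was thus higher at 10 µg/kg only. The sums hide differences between the colon genes. Car1 averaged 53.9 CPM at 10 µg/kg and was at 0 CPM in vehicle and at 3 and 30 µg/kg. Aqp8 averaged 0.142 CPM in vehicle and 5.06 CPM at 10 µg/kg. Of the 3 colon genes tested, 2 were called higher at 10 µg/kg against vehicle, where 0.613% of all genes were called. Car2 was already 54.5 ± 5.35 CPM at 3 µg/kg (SD, n = 3, log2 change 0.86, adjusted p = 0.0677 by edgeR), where DESeq2 called it. The part of the colon rise in Car2 or Atp12a was not tested.

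Adora2b, a receptor for adenosine that raises cAMP and thereby opens Cftr, measured 12.4 ± 3.49 CPM in vehicle and 4.82 ± 2.52 CPM at 30 µg/kg (SD, n = 3). It was called lower in the trend (log2 change −1.48, adjusted p = 0.0465 by edgeR, SE 0.40) and not at 30 µg/kg alone by edgeR (log2 change −1.41, edgeR adjusted p = 0.0703), where DESeq2 and limma-voom called it. Guca2a, which encodes guanylin, a peptide that stimulates chloride secretion through guanylate cyclase C, was higher at 30 than at 10 µg/kg (log2 change 1.01, adjusted p = 0.0483 by edgeR, SE 0.27), with 139 ± 39.5 CPM against 68.6 ± 12.4 CPM (SD, n = 3). With limma-voom the adjusted p of this difference for Guca2a was 0.0509, which did not pass. Against vehicle, at 102 ± 26.2 CPM (SD, n = 3), it did not pass at either dose. The most abundant genes of this list per kb, Guca2b (uroguanylin), Slc9a3r1 (the scaffold NHERF1, which binds both Slc9a3 and Cftr) and Ezr (ezrin), had log2 changes of 0.04, 0.17 and 0.05 at 30 µg/kg, with SE of 0.38, 0.25 and 0.24.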

How the data were processed

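The deposited values were unnormalised read counts, listed by Ensembl gene identifier, for 12 libraries in 4 groups taken from the labels. Per the submitters' processing notes the authors used FastQC 0.11.3, Trimmomatic 0.33, TopHat2 2.1.0, SAMtools 1.2.0, HTSeq 0.6.1 and DESeq, with build GRCm38. Their roles and parameters, and the strand setting of the counting, are not given in the sources used here, so reads of an antisense neighbour cannot be told apart. Entries for reads outside genes (25.0 to 30.1%), ambiguous reads (0.414 to 0.728%) and reads aligned to several places (31.4 to 38.8%) stayed out of library sizes and tests. Symbols, exon lengths and positions came from GENCODE M21, which matched 45229 of 46078 genes, and the unmatched genes held 0.749% of the counts.

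Counts were filtered with filterByExpr (15823 genes left), scaled by TMM and fitted with edgeR 4.0.16 in R 4.3.3 as 1 quasi-likelihood model with 4 groups. Each dose was compared with vehicle and 30 with 10 µg/kg, and a slope over the dose rank gave the trend, printed over its whole range. Standard errors came from the F statistic, log2 CPM used a prior count of 2, and the pipeline was tested on simulated data. Alternatives were upper-quartile or median-of-ratios scaling, DESeq2 1.42.0, limma-voom (limma 3.58.1), no filter, the compared groups alone, the library index or the clock score as a covariate, removal of length and GC trends, and each library left out. The genes, the lists and the clock score were chosen with earlier results of these data known. From the lists, called genes and the 3 most abundant per kb were named, except some that are not reported here.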

Additional observations from a re-analysis of the deposited data

How the results depend on the processing

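No paired analysis was possible because the labels give no replicate numbers that tie libraries across groups. The library index, a sequencing label that occurs once in each group, was fitted as a covariate instead. The counts of called genes were 0, 0, 1, 0 and 1 at 3, 10 and 30 µg/kg, between 30 and 10 µg/kg and in the trend, and the other settings moved them only as follows. With the clock score as a covariate they were 1 at 10 µg/kg (Slc13a1), 2 at 30 µg/kg and in the trend (Cftr and Slc34a2) and 3 between 30 and 10 µg/kg (Slc34a2, Slc20a1 and Cftr). Leaving out a library gave 0 to 1 between 30 and 10 µg/kg, where 1 (Cftr, log2 change −0.66 and −0.67) was called without replicate 2 at 10 µg/kg and without replicate 1 at 30 µg/kg. Log2 changes also turned in sign under some settings, and of the values below only that of Slc34a2 between 30 and 10 µg/kg (1.07 with the clock score) was called; the cause was not tested. With median-of-ratios scaling those that turned were at 3 µg/kg Slc13a1 −0.0047, Slc9a2 −0.0072. With upper-quartile scaling those that turned were at 3 µg/kg Slc13a1 −0.040, Slc9a2 −0.031, Cftr −0.011. With limma-voom 1 turned, at 3 µg/kg Slc13a1 −0.11. With no filter on low counts those that turned were at 3 µg/kg Slc13a1 −0.016, Slc9a2 −0.013. With the library index as covariate those that turned were at 3 µg/kg Slc13a1 −0.29, Slc9a3 −0.056, Slc9a2 −0.018. With length and GC trend removed those that turned were at 3 µg/kg Slc13a1 −0.062, Cftr −0.053, and at 10 µg/kg Slc9a2 0.0076, and at 30 µg/kg Slc26a3 0.041, and in the trend Slc26a3 0.028. With the clock score as covariate those that turned were at 3 µg/kg Slc26a6 −0.071, Slc34a2 −0.0022, Slc20a1 0.097, Slc9a3 −0.29, and at 10 µg/kg Slc20a1 0.50, Slc9a3 −0.18, Slc9a2 0.050, and for 30 against 10 µg/kg Slc26a6 0.0070, Slc34a2 1.07. With DESeq2 1 turned, at 3 µg/kg Slc9a2 −0.0072. Leaving out each library gave log2 changes at 3 µg/kg Slc13a1 from −0.67 to 0.26, Slc26a6 from −0.059 to 0.19, Slc9a3 from −0.27 to 0.80, Slc9a2 from −0.13 to 0.079, Cftr from −0.023 to 0.069, and at 10 µg/kg Slc20a1 from −0.62 to 0.31, and at 30 µg/kg Slc26a3 from −0.092 to 0.058, Slc26a6 from −0.041 to 0.26, Slc34a2 from −0.16 to 2.27, Slc20a1 from −0.89 to 0.010, Slc9a3 from −0.98 to 0.28, and for 30 against 10 µg/kg Slc34a2 from −1.02 to 0.057, Slc20a1 from −0.79 to 0.21, Slc12a2 from −0.047 to 0.084, and in the trend Slc26a3 from −0.10 to 0.062, Slc20a1 from −0.60 to 0.10, Slc9a3 from −0.62 to 0.20. The number of libraries limits the precision most for Slc34a2, whose interval at 30 µg/kg without the clock score reached 5.45-fold.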
